A study of Mus musculus with 12 samples.

Results

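The cytochrome P450 genes of families 1 to 4 were followed in RNA-seq of periocular skin from filaggrin-deficient mice with and without MyD88. Members were chosen by symbol: a Cyp prefix, a family number from 1 to 4, a subfamily letter and a gene number, leaving out Cyp4f39. Of 21247 genes in the table, 40 met this rule, and 37 of them reached the minimum of 10 counts summed over the 8 libraries and were tested. The other 3, Cyp2c44 with 0 to 2 counts in a library, Cyp3a16 with 0 to 2 and Cyp4a14 with 0 to 1, were too low to test. Another 40 mouse genes of the same families in the GENCODE M21 annotation, among them Cyp1a2, Cyp2a4 and Cyp3a11, were not analysed here.

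The 4 mice labelled ft/ft are BALB/c mice in which a point mutation that arose by itself inactivates filaggrin (Flg), which builds the outer layers of the epidermis, and the study describes them as free of the ma mutation. The 4 mice labelled ft/ftMyD88-/- carry the same filaggrin mutation, crossed to mice that lack MyD88 in every tissue, so filaggrin deficiency is common to both groups. MyD88 relays signals from IL-1 family receptors and most toll-like receptors. Skin was taken at 6 weeks of age, and the 4 WT samples of the series were not analysed here. The ma mutation lies in Tmem79, which was at 55.4 to 62.0 CPM (counts scaled to library size with TMM factors) in ft/ft and at 13.8 to 18.8 in ft/ftMyD88-/- (log2 fold change -1.85, edgeR adjusted p = 5.08e-07). The groups were thus far apart in this gene too, and counts do not show an allele. The paper describes spontaneous inflammation of the periocular skin in ft/ftMyD88-/- mice, and no visible inflammation in ft/ft mice. The comparison is thus also one of inflamed with uninflamed skin. It asks which P450 genes differed between the groups as labelled, and whether they depended on MyD88 itself was not tested. The part of inflammation in these differences was not tested either.

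P450 enzymes are haem proteins that insert an oxygen atom into lipids, hormones, drugs and other foreign compounds, with electrons passed on by the reductase Por. Families 1 to 3 are best known for clearing foreign chemicals, and several members also make epoxides of arachidonic acid. Family 4 enzymes hydroxylate the end of fatty acid chains and of leukotrienes. In skin, these genes are active in keratinocytes, sebaceous glands and other epithelial cells. Many are switched on by ligand-activated factors such as the aryl hydrocarbon receptor (Ahr), PPAR alpha (Ppara) and the liver receptors CAR and PXR.

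The libraries of the 2 groups differed in sex transcripts, which bears on every value that follows. Xist, the RNA that silences 1 X chromosome in females, was at 0 to 0.0429 CPM in ft/ft and at 34.6 to 66.8 in ft/ftMyD88-/-. The Y-linked Ddx3y was at 54.2 to 73.2 CPM in ft/ft and at 0 to 0.482 in ft/ftMyD88-/-. The series describes all mice as female, so the 4 libraries labelled ft/ft went against their description, and an effect of genotype cannot be told apart from one of sex. Counts of Myd88 itself were no lower under the ft/ftMyD88-/- label, at 32.2 to 48.8 CPM against 25.4 to 36.5 (log2 fold change 0.42, edgeR adjusted p = 0.0484). A whole-gene count does not resolve exons and so is no check of a deletion, and each direction rests on the labels. Total counts were 18941705 to 29255129 in ft/ft and 15802957 to 27037997 in ft/ftMyD88-/-. In a library, 3 counts, the most that a count of 0 allows, corresponded to 0.102 to 0.183 CPM. Epidermal Krt10 was at 6910 to 8271 CPM in ft/ft and at 4734 to 5744 in ft/ftMyD88-/- (log2 fold change -0.58, edgeR adjusted p = 0.0045). Krt1, also epidermal, was not called (log2 fold change -0.098, edgeR adjusted p = 0.702). Of the 8 differentiated keratinocyte genes listed below, 2 were lower and 2 were higher. Muscle, fat and hair follicle genes were also present.

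The active site of these enzymes shows what the members have in common. A stretch of 10 codons holds the cysteine that binds the haem iron. It was found in 38 of the 39 members that matched GENCODE M21 (GRCm38), by the spacing of its phenylalanine, its glycines and its cysteine, in coding sequences of 491 to 546 codons. Cyp2s1 did not match this spacing, and Cyp2c44 was not matched to the annotation. The stretches below, with the cysteine codon in capitals, come from members that were lower, higher or not called in ft/ftMyD88-/- skin. In 27 members the codon was TGC and in 11 it was TGT. The stretch crossed an exon junction in 32 members and lay within 1 exon in 6.
Cyp1a1 (not called): tttggtttgggcaagcgaaagTGCatcgga
Cyp2a5 (lower): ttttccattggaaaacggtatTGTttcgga
Cyp2b10 (lower): ttctcaacaggaaagcgcattTGTcttggt
Cyp2b19 (lower): ttctccacaggaaagcgcattTGTcttgga
Cyp2e1 (lower): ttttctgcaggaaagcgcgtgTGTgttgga
Cyp2f2 (lower): ttttcggctggacgtcgactgTGTctggga
Cyp2g1 (higher): ttttcctctggaaagcgcatcTGCgttggg
Cyp2j6 (lower): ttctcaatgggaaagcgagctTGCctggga
Cyp2w1 (lower): ttctccgctggtcgccgggtcTGCgttggg
Cyp3a57 (lower): tttgggaatggacccaggaacTGCataggc
Cyp4a12b (lower): ttctcaggaggagcaaggaacTGCattggg
Cyp4f13 (lower): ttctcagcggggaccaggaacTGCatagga
Cyp4f18 (higher): ttctcggctgggcccaggaacTGCatagga

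Most members that moved were lower in ft/ftMyD88-/- skin. With edgeR's quasi-likelihood test and an adjusted p under 0.05 over all 20454 genes tested, 19 of 37 members (51.4%) were lower and 2 (5.41%) were higher, Cyp2g1 and Cyp4f18. Over all genes, 12.3% were called lower and 10.9% higher. The remaining 16 members were not called, and 4 of these had an unadjusted p under 0.05. The log2 fold changes of the 37 members ran from -2.71 to 1.53 with a median of -0.81, while the median over all genes tested was 0.013. The member count called lower was 19 under RLE scaling and under library size alone, which moved the median of the members to -0.63 and that of all genes to 0.19. In 20 members every ft/ftMyD88-/- library was under every ft/ft library, against 14.2% of all genes, and in 1 member every library was above, against 12.5% of all genes. In bulk skin, fewer cells of a type and less RNA per cell cannot be told apart.

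**Figure D1:**
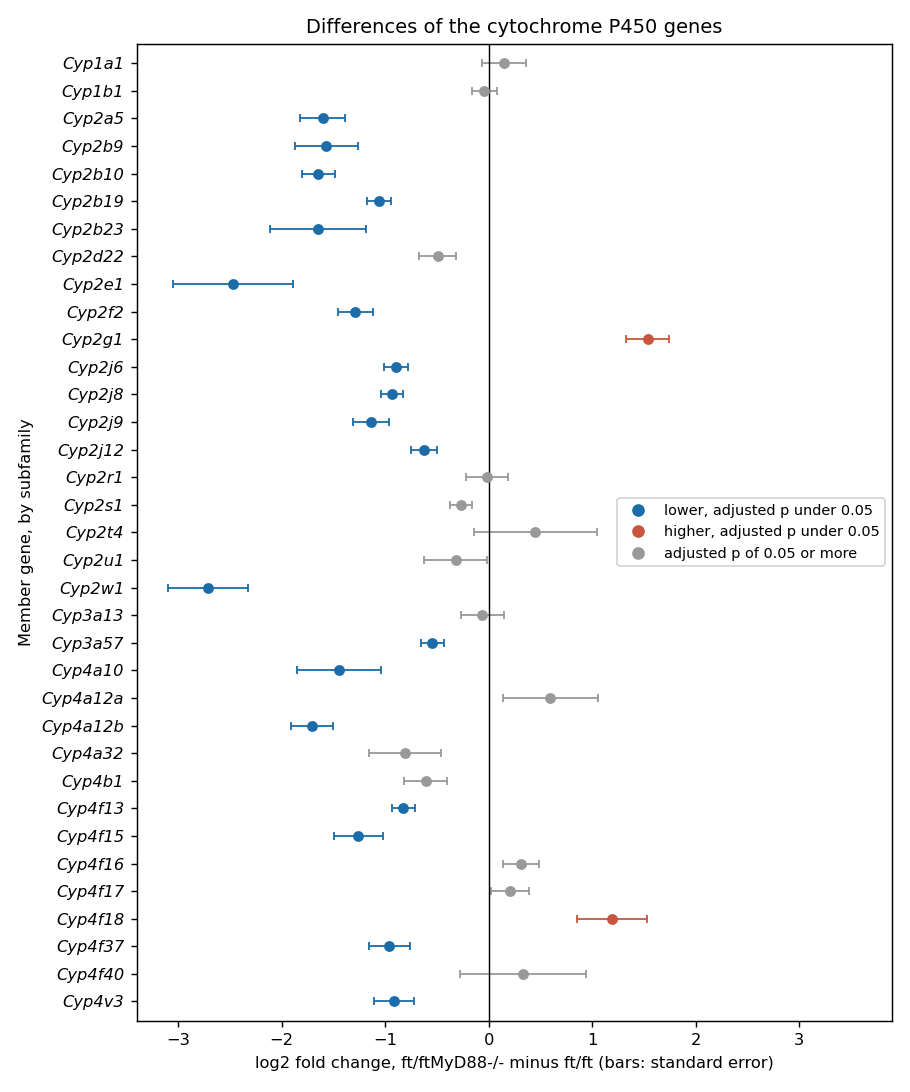
The log2 fold change (ft/ftMyD88-/- minus ft/ft, x axis) of 35 members by subfamily (y axis), with the standard error as bars and the edgeR call as colour. All 4 members of subfamily 2B and all 4 of 2J are on the left of 0, and Cyp2g1 and Cyp4f18 are the 2 called on the right; Cyp3a25 and Cyp4f14 are left out because a group was at or under 3 counts in every library.

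The summed level of the 40 members was 1176 to 1358 CPM in the 4 ft/ft libraries and 556 to 790 in the 4 ft/ftMyD88-/- libraries. The ranges were apart, and the highest ft/ftMyD88-/- library was replicate 3. Family 2 carried most of this sum, with 836 to 1010 CPM in ft/ft and 344 to 502 in ft/ftMyD88-/-. Of its 18 tested members, 12 were lower, 1 was higher and 5 were not called. Family 4 fell from a summed 147 to 196 CPM to 80.1 to 105 CPM, with 6 of 14 tested members lower and 1 higher. In family 3, 1 of 3 tested members was lower. The 2 members of family 1 were not called, and their sum was 105 to 127 CPM in ft/ft and 97.7 to 144 in ft/ftMyD88-/-.

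**Figure D2:**
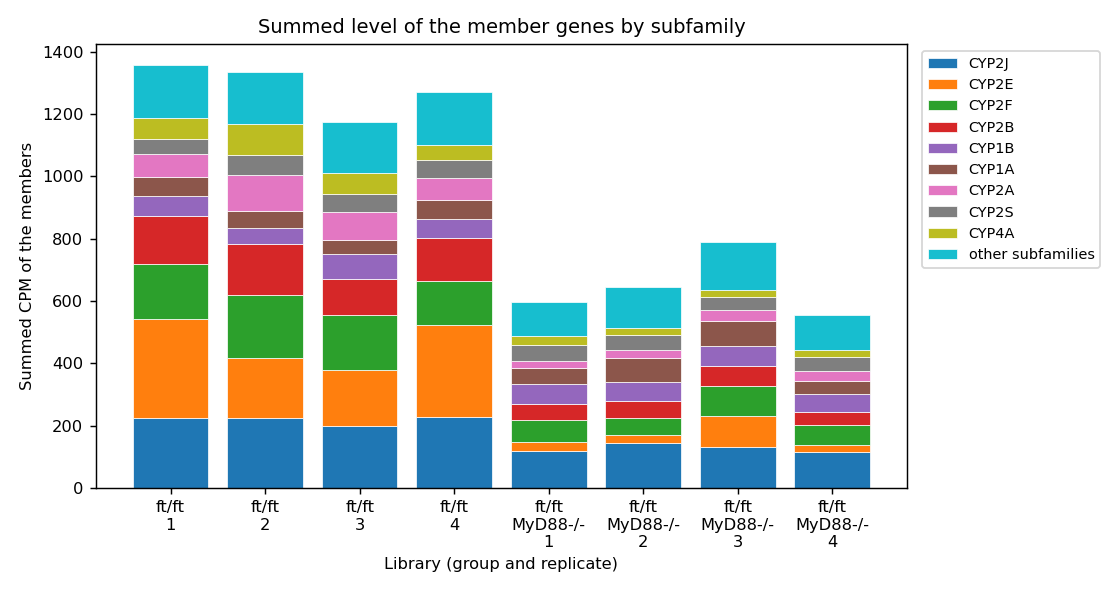
Summed CPM of the members (y axis) in each library (x axis, group and replicate), stacked by subfamily. The ft/ft bars reach 1176 to 1358 and the ft/ftMyD88-/- bars 556 to 790, and the CYP2E segment, which is Cyp2e1 alone, is 179 to 319 CPM in ft/ft and 22.7 to 99.2 in ft/ftMyD88-/-.

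Cyp2e1, which oxidises ethanol, acetone and other small molecules and is best known from liver, was the most abundant member per length in ft/ft skin. Per kilobase of merged exon, the scale on which genes can be compared, it stood at 114 ± 32.9 CPM per kb (SD, n = 4). Cyp2f2 followed at 86.1 ± 12.4 CPM per kb, a range that the SD of Cyp2e1 reaches. Cyp2j12 came next at 53.3 ± 5.42, then Cyp2a5 at 42.3 ± 9.99 and Cyp2b10 at 39.9 ± 5.73, which lay within 1 SD of each other. In ft/ftMyD88-/- skin Cyp2f2 (35.2 ± 8.70 CPM per kb) and Cyp2j12 (34.5 ± 5.90) were level within their SD, and Cyp2e1 was at 20.5 ± 17.0, beside Cyp1a1 at 22.2 ± 6.82. This order assumes that counts grow with exon length, as in the polyA libraries of the study's methods. The labels name a fixed-tissue protocol, under which they need not, and the shares of 50-base stretches given below rest on the same methods. All levels below are CPM per gene and are compared only between libraries.

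**Figure D3:**
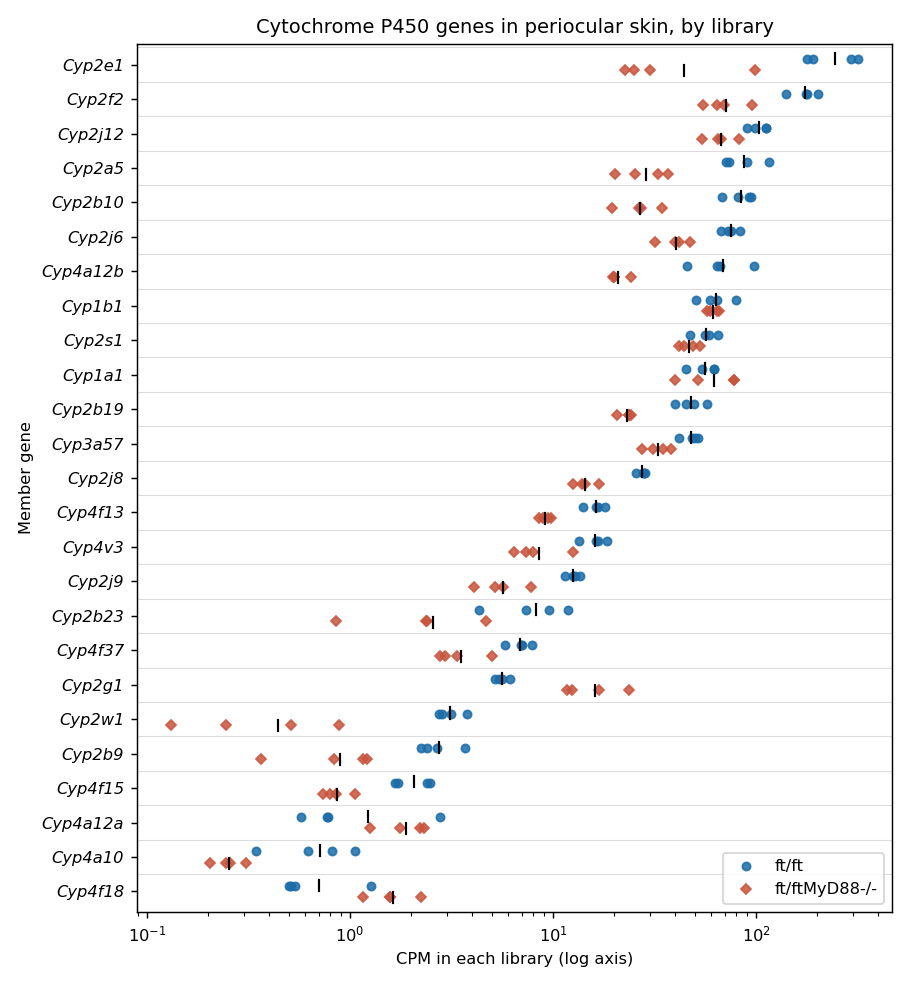
CPM of the 25 named members (y axis, ordered by their mean in ft/ft) in each of 4 ft/ft (circles) and 4 ft/ftMyD88-/- (diamonds) libraries on a log x axis, with the group means as short vertical lines. The 2 sets of points are apart for 18 of the 19 members called lower, and Cyp2b23 is the exception.

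Cyp2e1 (GRCm38 chromosome 7, 140763739 to 140774987) was at 319, 191, 179 and 295 CPM in ft/ft replicates 1 to 4 and at 30.0, 25.1, 99.2 and 22.7 in ft/ftMyD88-/-. All 4 ft/ftMyD88-/- libraries were below all ft/ft libraries, but replicate 3 stood well above the other 3. The log2 fold change was -2.47 ± 0.58 (SE), with an edgeR adjusted p of 0.0264, a 5.54-fold lower level. It made up 14.3% to 23.5% of the summed member CPM in ft/ft and 3.91% to 12.6% in ft/ftMyD88-/-. The call was lost without ft/ft replicate 1 or 4, or without ft/ftMyD88-/- replicate 1, 2 or 4, with adjusted p-values of 0.0597 to 0.0675 and log2 fold changes of -2.37 to -2.25. Without ft/ftMyD88-/- replicate 3 it was -3.23.

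Cyp2e1 is also expressed in fat, and markers of fat cells varied with it inside each group. The summed level of 8 adipocyte genes was 1594, 941, 1005 and 1936 CPM in ft/ft and 990, 871, 1835 and 928 in ft/ftMyD88-/-, so the libraries high in Cyp2e1 (ft/ft replicates 1 and 4, ft/ftMyD88-/- replicate 3) were those high in adipocyte genes. None of the 8 adipocyte genes was called between the groups, and the ranges of their sums overlapped. The part of fat in the Cyp2e1 difference was not tested.

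**Figure D4:**
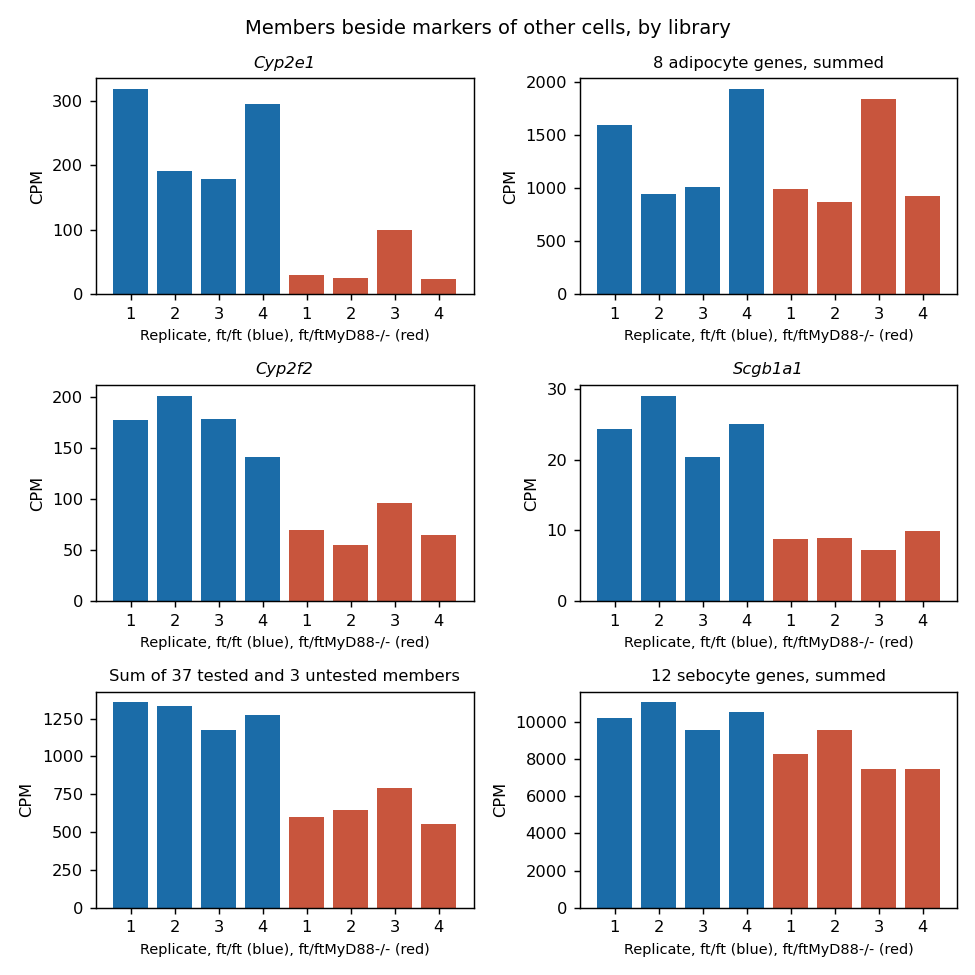
CPM (y axis) in each library (x axis, replicates 1 to 4 of ft/ft in blue and of ft/ftMyD88-/- in red) of Cyp2e1 beside 8 summed adipocyte genes, of Cyp2f2 beside Scgb1a1, and of the summed members beside 12 summed sebocyte genes. The adipocyte bars of ft/ft replicates 1 and 4 and ft/ftMyD88-/- replicate 3 are the 3 tallest, and the Scgb1a1 bars of the groups are apart (20.4 to 29.1 and 7.21 to 9.88 CPM).

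The cluster of P450 genes on chromosome 7 held 9 members, and 6 of them were lower: Cyp2b10, Cyp2b9, Cyp2b23, Cyp2b19, Cyp2a5 and Cyp2f2. Its neighbours Cyp2s1 and Cyp2t4 were not called, and Cyp2g1 was higher. Cyp2a5 (26835305 to 26843548), an enzyme that hydroxylates coumarin and nicotine, was at 73.3, 116, 90.5 and 70.8 CPM in ft/ft and at 20.3, 25.3, 37.1 and 32.7 in ft/ftMyD88-/-. The groups were well apart (log2 fold change -1.60 ± 0.22 SE, edgeR adjusted p = 0.00111). Of its 50-base stretches, the read length of the study, 37% also occur in other annotated transcripts, chiefly Cyp2a4, so reads of the pair could have been counted for either gene or for none.

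All 4 members of subfamily 2B were lower, by log2 fold changes of -1.65 to -1.06. Cyp2b10, the classic CAR-inducible P450 of liver, was at 95.0, 92.2, 68.3 and 81.7 CPM in ft/ft and at 26.5, 27.1, 34.3 and 19.6 in ft/ftMyD88-/-, with no overlap. The difference was 3.13-fold (log2 fold change -1.65 ± 0.16 SE, edgeR adjusted p = 0.000105). Cyp2b19, a keratinocyte enzyme that makes arachidonic acid epoxides, was at 45.3, 57.2, 39.9 and 49.8 CPM in ft/ft and at 23.7, 24.3, 23.6 and 20.6 in ft/ftMyD88-/-. Its 2 sets of libraries were apart, and the ft/ftMyD88-/- values were close to each other (log2 fold change -1.06 ± 0.11 SE, edgeR adjusted p = 0.000126). Cyp2b9, known as female-biased in mouse liver, was at 2.22 to 3.67 CPM in ft/ft and 0.366 to 1.21 in ft/ftMyD88-/- (log2 fold change -1.57, edgeR adjusted p = 0.00361). Cyp2b23 was at 9.52, 11.8, 4.30 and 7.40 CPM against 2.37, 2.39, 4.66 and 0.854, and the groups overlapped at ft/ft replicate 3 and ft/ftMyD88-/- replicate 3. Its log2 fold change was -1.65 ± 0.46 (SE), with an edgeR adjusted p of 0.0348, and the call was lost without ft/ft replicate 1, 2 or 4 or without ft/ftMyD88-/- replicate 1 or 2 (adjusted p from 0.0698 to 0.0941).

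Cyp2f2 (chromosome 7, 27119909 to 27133660), the club cell enzyme that activates naphthalene in mouse airways, was at 177, 201, 178 and 141 CPM in ft/ft and at 69.7, 54.8, 96.0 and 64.5 in ft/ftMyD88-/-. Every ft/ftMyD88-/- library was under every ft/ft library (log2 fold change -1.29 ± 0.17 SE, edgeR adjusted p = 0.000527). An antisense gene, Gm15883, covers 13.5% of its exon bases, and the library kit named in the methods does not mark strand, so reads of the pair cannot be told apart. Scgb1a1, the defining secretory protein of club cells, was also lower, at 8.71 ± 1.11 against 24.7 ± 3.55 CPM (SD, n = 4) (log2 fold change -1.51, edgeR adjusted p = 3.35e-05). Of the 5 genes in that airway and nasal list, 2 were in the table, and the other, the olfactory marker Omp, was at 3.74 to 6.04 CPM in ft/ft and 2.52 to 4.39 in ft/ftMyD88-/- (adjusted p = 0.153). The part of such cells in the Cyp2f2 difference was not tested.

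Cyp2g1 (chromosome 7, 26808892 to 26821205), known from the olfactory mucosa, lies between Cyp2b19 and Cyp2a5 and moved the other way. It was at 6.17, 5.16, 5.41 and 5.60 CPM in ft/ft and at 11.7, 12.4, 23.7 and 16.8 in ft/ftMyD88-/-. Every ft/ftMyD88-/- library was above every ft/ft library (2.90-fold, log2 fold change 1.53 ± 0.21 SE, edgeR adjusted p = 0.000522). Cyp2s1, an epithelial P450, was at 47.4 to 64.6 CPM in ft/ft and at 41.9 to 53.0 in ft/ftMyD88-/-, which overlap (log2 fold change -0.27, edgeR adjusted p = 0.0945). Without ft/ft replicate 1 its adjusted p was 0.0354. Cyp2t4 stayed at 0.0610 to 0.307 CPM in all 8 libraries.

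Promoters of this cluster were read because 6 of its members moved the same way. RefSeq promoters (GRCm38.p6, 250 bases before to 50 after the start) were at hand for 31 of the 40 members. They covered 8 of the 9 in the cluster, all but Cyp2g1, which was higher. AGGTCA, the half-site letters of many nuclear receptors, was found on either strand in 6 of those 8 cluster promoters. These were Cyp2b9, Cyp2b23, Cyp2b19, Cyp2a5 and Cyp2f2, which were lower, and Cyp2t4, which was not called, while Cyp2b10 and Cyp2s1 did not hold it. In Cyp2a5 the match lies just after the start codon, and so within the coding sequence. Over all members it was in 8 of 31 (25.8%), against 16% of 27025 promoters. CCAAT was in 17 of 31 (54.8%) against 37.9%, TATAAA in 5 (16.1%) against 14.2%, and GCGTG, the core letters bound by Ahr with its partner, in 10 (32.3%) against 32.5%. Among the 8 cluster promoters, CCAAT was held only by Cyp2b10 and Cyp2b23, GCGTG only by Cyp2b10 and TATAAA only by Cyp2a5. Both strands were searched, and none of the 4 motifs contains another. A match is a description of letters and not a binding site. The promoters of 3 lowered members follow, with AGGTCA or its reverse complement in capitals.
Cyp2b9 (chr7:26173159-26173458, plus strand): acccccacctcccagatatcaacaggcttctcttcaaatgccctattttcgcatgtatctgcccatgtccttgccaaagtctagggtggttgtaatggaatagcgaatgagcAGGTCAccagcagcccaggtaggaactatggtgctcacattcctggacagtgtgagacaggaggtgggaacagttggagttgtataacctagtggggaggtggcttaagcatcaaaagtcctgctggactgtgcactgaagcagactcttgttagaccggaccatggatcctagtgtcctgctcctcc
Cyp2a5 (chr7:26835089-26835388, plus strand): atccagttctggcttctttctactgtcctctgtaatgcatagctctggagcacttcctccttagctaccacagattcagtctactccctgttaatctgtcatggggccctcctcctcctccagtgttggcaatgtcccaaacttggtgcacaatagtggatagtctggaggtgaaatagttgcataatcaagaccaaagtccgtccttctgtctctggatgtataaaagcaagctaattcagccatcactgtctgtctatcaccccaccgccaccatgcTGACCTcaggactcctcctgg
Cyp2f2 (chr7:27119705-27120004, plus strand): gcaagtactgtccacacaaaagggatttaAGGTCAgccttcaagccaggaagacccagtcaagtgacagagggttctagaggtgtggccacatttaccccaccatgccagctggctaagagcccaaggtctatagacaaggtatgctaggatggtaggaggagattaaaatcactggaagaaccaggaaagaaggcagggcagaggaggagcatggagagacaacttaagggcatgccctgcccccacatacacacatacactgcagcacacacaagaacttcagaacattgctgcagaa

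All 4 members of subfamily 2J, whose enzymes make epoxides of arachidonic acid, were lower and none overlapped between the groups. Cyp2j12 was at 99.2, 112, 90.8 and 112 CPM in ft/ft and at 66.9, 82.2, 64.8 and 54.3 in ft/ftMyD88-/- (log2 fold change -0.63 ± 0.12 SE, edgeR adjusted p = 0.00368). Cyp2j6 was at 67.6 to 83.6 CPM against 31.7 to 47.1 (log2 fold change -0.90, edgeR adjusted p = 0.000381). Cyp2j8 was at 25.8 to 28.3 CPM against 12.5 to 16.8, and Cyp2j9 at 11.4 to 13.6 against 4.08 to 7.79, with log2 fold changes of -0.94 and -1.14. The summed level of the subfamily, which lies on chromosome 4, was 198 to 227 CPM in ft/ft and 115 to 145 in ft/ftMyD88-/-. These genes share under 1% of their 50-base stretches with other annotated transcripts.

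Cyp2w1 (chromosome 5, 139352617 to 139357033), known from developing gut and colon tumours, had the largest log2 fold change of any member, -2.71 (± 0.39 SE, edgeR adjusted p = 0.000648). It was a low gene, read 73, 78, 49 and 98 times in the ft/ft libraries and 3, 14, 26 and 4 times in those of ft/ftMyD88-/-. In CPM these were 3.13, 2.84, 2.73 and 3.76 against 0.131, 0.514, 0.885 and 0.244. The groups were apart, although 1 ft/ftMyD88-/- library was at 3 counts. Of the other single members of family 2, Cyp2d22 was at 4.04 to 6.08 CPM in ft/ft and 2.87 to 4.08 in ft/ftMyD88-/- (log2 fold change -0.49, edgeR adjusted p = 0.0688). Cyp2r1, a vitamin D 25-hydroxylase, was at 1.53 to 2.19 CPM against 1.60 to 1.95, and Cyp2u1, a fatty acid hydroxylase, at 0.725 to 1.69 against 0.701 to 1.05. Neither was called, with edgeR adjusted p-values of 0.956 and 0.486.

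In family 1, the classic targets of Ahr, no member was called. Cyp1a1 was at 62.4, 54.1, 45.3 and 61.8 CPM in ft/ft and at 51.5, 77.5, 77.9 and 40.1 in ft/ftMyD88-/-. The ft/ftMyD88-/- libraries lay on both sides of the ft/ft range (log2 fold change 0.15 ± 0.21 SE, edgeR adjusted p = 0.667). Cyp1b1, which is needed for normal development of the eye, was at 50.7 to 79.7 CPM in ft/ft and at 57.6 to 65.6 in ft/ftMyD88-/- (log2 fold change -0.04 ± 0.12 SE, adjusted p = 0.835). Its sign turned with the scaling and with the libraries used, to 0.14 with library size alone and to 0.08 without ft/ft replicate 3.

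In family 3, whose liver members clear drugs and steroids, Cyp3a57 was lower, at 52.0, 48.1, 41.8 and 50.0 CPM in ft/ft and 30.9, 38.3, 34.7 and 27.6 in ft/ftMyD88-/-. The groups did not overlap (log2 fold change -0.54 ± 0.11 SE, edgeR adjusted p = 0.00477). Cyp3a13 was not called, at 4.24 to 7.78 CPM against 4.35 to 6.34 (adjusted p = 0.861). Cyp3a25 had 0 to 4 counts in a library, so no fold is given.

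Subfamily 4A, fatty acid omega-hydroxylases that PPAR alpha switches on in liver, held a pair of near-copies with unequal values. Cyp4a12b (chromosome 4, 115411624 to 115439034) was at 66.8, 97.6, 64.1 and 45.8 CPM in ft/ft and at 24.3, 19.8, 19.9 and 20.0 in ft/ftMyD88-/-. It was lower in every ft/ftMyD88-/- library, and ft/ft replicate 2 was the highest (log2 fold change -1.71 ± 0.20 SE, edgeR adjusted p = 0.000458). Cyp4a12a (115299046 to 115332815) was at 0.772, 2.76, 0.781 and 0.575 CPM in ft/ft and at 2.32, 1.25, 2.21 and 1.77 in ft/ftMyD88-/-. ft/ft replicate 2 was above all others, and the gene was not called (log2 fold change 0.60, edgeR adjusted p = 0.389). Without that library the log2 fold change was 1.42 and the adjusted p 0.00779. The 2 genes are known as male-biased in mouse liver, and their summed CPM was 46.4 to 100 in ft/ft and 21.1 to 26.6 in ft/ftMyD88-/-.

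The coding sequences of Cyp4a12a and Cyp4a12b have 1527 bases each and differ at 23 positions (98.49% identity), with an identical run of 342 bases. Of their 50-base stretches, 48.9% of Cyp4a12a and 49.4% of Cyp4a12b are shared, so a count of either gene rests on the reads that cross a difference. The window with the most differences, coding bases 661 to 750, is shown with the 7 differing bases in capitals.
Cyp4a12a: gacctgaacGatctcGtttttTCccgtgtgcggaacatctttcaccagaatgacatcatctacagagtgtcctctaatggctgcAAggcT
Cyp4a12b: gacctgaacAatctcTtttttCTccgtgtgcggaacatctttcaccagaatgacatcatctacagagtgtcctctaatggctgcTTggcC

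Of the other members of subfamily 4A, the ft/ft libraries held 19, 17, 19 and 9 counts of Cyp4a10 and those of ft/ftMyD88-/- held 7, 7, 6 and 4, which is 0.345 to 1.06 CPM against 0.204 to 0.307. It was called lower (log2 fold change -1.45 ± 0.41 SE, edgeR adjusted p = 0.0236), but not without ft/ft replicate 1 or 3 or without ft/ftMyD88-/- replicate 2, 3 or 4 (adjusted p from 0.0510 to 0.0701). Cyp4a32, with 97.19% coding identity to Cyp4a10, was at 0.558 to 0.882 CPM against 0.263 to 0.544, which did not overlap, and was not called (log2 fold change -0.81, adjusted p = 0.109). Cyp4b1, the lung and skin member of family 4, was at 43.8, 41.4, 48.0 and 44.9 CPM in ft/ft and at 20.6, 33.9, 41.0 and 20.9 in ft/ftMyD88-/-. The groups did not overlap, but replicate 3 of ft/ftMyD88-/- came close to ft/ft (log2 fold change -0.61, edgeR adjusted p = 0.0622).

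In subfamily 4F, whose enzymes inactivate leukotriene B4 and hydroxylate long fatty acids, 3 of 8 members were lower and 1 was higher. Cyp4f13 was at 16.2, 16.6, 14.1 and 18.02 CPM in ft/ft and at 8.90, 9.77, 9.42 and 8.54 in ft/ftMyD88-/-, apart in all libraries (log2 fold change -0.83 ± 0.11 SE, edgeR adjusted p = 0.000479). Cyp4f15 was at 1.67 to 2.47 CPM against 0.735 to 1.05 (log2 fold change -1.26), and Cyp4f37 at 5.83 to 7.86 against 2.76 to 5.001 (log2 fold change -0.96). Cyp4f37 shares 19.7% of its 50-base stretches with other transcripts, chiefly Cyp4f16, which was at 6.06 to 8.48 CPM against 7.24 to 11.3 and was not called (log2 fold change 0.31, edgeR adjusted p = 0.214). Cyp4f17 was at 2.49 to 4.18 CPM against 3.53 to 4.25, and Cyp4f40 at 0.0429 to 0.582 against 0.238 to 0.526, neither called. Cyp4f14 had 0 to 3 counts in every library.

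Cyp4f18, the leukotriene B4 hydroxylase of mouse neutrophils, was at 0.514, 1.27, 0.502 and 0.537 CPM in ft/ft and at 1.58, 2.24, 1.57 and 1.16 in ft/ftMyD88-/-. The groups overlapped through ft/ft replicate 2. The log2 fold change was 1.19 ± 0.34 (SE), with an edgeR adjusted p of 0.0249, and the call was lost without ft/ft replicate 1, 3 or 4 or ft/ftMyD88-/- replicate 2 (adjusted p from 0.0656 to 0.0746). The summed level of the neutrophil markers S100a8, S100a9, Cxcr2 and Csf3r was 36.1, 250, 29.5 and 21.5 CPM in ft/ft and 493, 704, 399 and 958 in ft/ftMyD88-/-. Within ft/ftMyD88-/- the sum did not follow Cyp4f18, as replicate 4 was highest in the sum and lowest in Cyp4f18. Most of the sum came from S100a8 and S100a9 (means of 242 and 368 CPM in ft/ftMyD88-/-). Of these 4, Csf3r was called higher, while S100a8, S100a9 and Cxcr2 were not (edgeR adjusted p = 0.126, 0.123 and 0.383). The highest ft/ft library was replicate 2 for both the sum and Cyp4f18. Csf3r was at 1.59, 6.15, 2.62 and 2.76 CPM in ft/ft and at 8.68, 14.1, 5.95 and 6.59 in ft/ftMyD88-/-. Like Cyp4f18, it was highest in replicate 2 of each group. So was Cxcr2, at 21.4 CPM in ft/ft replicate 2 and 25.6 in ft/ftMyD88-/- replicate 2. Within ft/ftMyD88-/-, Csf3r and Cxcr2 were lowest in replicate 3, and Cyp4f18 in replicate 4. The part of these 4 markers in the Cyp4f18 difference was not tested. The antisense neighbour Zfp961 covers 9.76% of its exon bases.

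Cyp4v3 (chromosome 8, 45304944 to 45333216), the mouse counterpart of the human gene of Bietti crystalline dystrophy of the retina, was at 18.5, 13.5, 16.6 and 16.2 CPM in ft/ft and at 6.40, 7.39, 12.5 and 7.93 in ft/ftMyD88-/-. The groups were apart, with ft/ftMyD88-/- replicate 3 nearest to ft/ft (log2 fold change -0.91 ± 0.19 SE, edgeR adjusted p = 0.00546).

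The genes that serve P450 enzymes were taken from a list of 37 genes, of which 34 were in the table and tested. Of these, 13 were lower (38.2%), 5 were higher (14.7%) and 16 were not called, and the median log2 fold change was -0.23. Over all genes tested, 12.3% were lower and 10.9% higher, so the share of these genes that was higher stood near that of all genes. With library size alone in place of TMM, 6 were lower (17.6%, against 6.48% of all genes) and 7 higher (20.6%, against 22.7%), and Alad, Fech, Cyb5r3, Pgrmc1, Ahr, Ppara and Nr3c1 were no longer called lower. The 5 higher genes were Alas1, Uros, Ppard, Vdr and Tiparp. Each lost its call with at least 1 library left out, while its log2 fold change stayed positive. Without ft/ft replicate 3 edgeR called 0 of the 34 higher, with 6 at an unadjusted p under 0.05 and adjusted p-values of 0.0507 to 0.0865 for those 5. Over all genes the share called higher was then 7.83%, against 10.9% with all 8 libraries. Without ft/ft replicate 4, and with a replicate block, 1 was higher, Ppard. DESeq2 on all 8 libraries called 5 higher and voom 4. Por, the reductase that feeds electrons to every member, was at 288, 341, 328 and 303 CPM in ft/ft and at 213, 230, 212 and 183 in ft/ftMyD88-/-, with no overlap (log2 fold change -0.59 ± 0.10 SE, edgeR adjusted p = 0.00137). Cyb5r3, Pgrmc1 and Pgrmc2, other electron donors and membrane helpers, were lower by log2 fold changes of -0.46 to -0.38, while Cyb5a (-0.04) and Cyb5b (-0.16) were not called. The Pgrmc1 call was lost without ft/ft replicate 1 or 3 or ft/ftMyD88-/- replicate 1, 3 or 4. Its edgeR adjusted p was then 0.0556 to 0.0644, and it was 0.0518 with the replicate block. In haem supply, Alas1, the rate-limiting enzyme, and Uros were higher (0.30 and 0.33), and Alad and Fech, the last enzyme of the pathway, were lower (-0.37 and -0.40). The other 6 of 10 haem genes were not called.

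Of 11 receptor and sensor genes tested, 5 were lower (45.5%, against 12.3% of all genes) and 2 were higher (18.2%, against 10.9%). Of these 5, only Rxra (edgeR adjusted p = 0.0497) and Rxrg (0.0118) stayed lower with library size alone. Ahr was at 58.9, 59.7, 59.1 and 52.7 CPM in ft/ft and at 39.1, 45.2, 52.6 and 38.5 in ft/ftMyD88-/-, where replicate 3 came just under the lowest ft/ft library (log2 fold change -0.39, edgeR adjusted p = 0.0197). The Ahr call was lost without ft/ft replicate 3 or ft/ftMyD88-/- replicate 1 or 4, with adjusted p-values of 0.0509 to 0.0580. Ppara was at 16.5 to 23.5 CPM against 11.5 to 14.8 (log2 fold change -0.54, edgeR adjusted p = 0.00979). Rxrg (-0.91), Rxra (-0.43) and the glucocorticoid receptor Nr3c1 (-0.59) were also lower, and Ppard (0.52) and the vitamin D receptor Vdr (0.38) were higher. The genes of PXR and CAR, Nr1i2 and Nr1i3, were not analysed here. Among Ahr targets outside the P450 genes, Tiparp was higher (0.30), Aldh3a1 was lower (-1.36, edgeR adjusted p = 0.000191) and Nqo1 was not called (-0.04). Ephx1, the microsomal epoxide hydrolase, was at 117 to 143 CPM against 59.6 to 80.7 (-0.92), and Ephx2, Ephx3 and Ephx4 were not called.

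**Figure D5:**
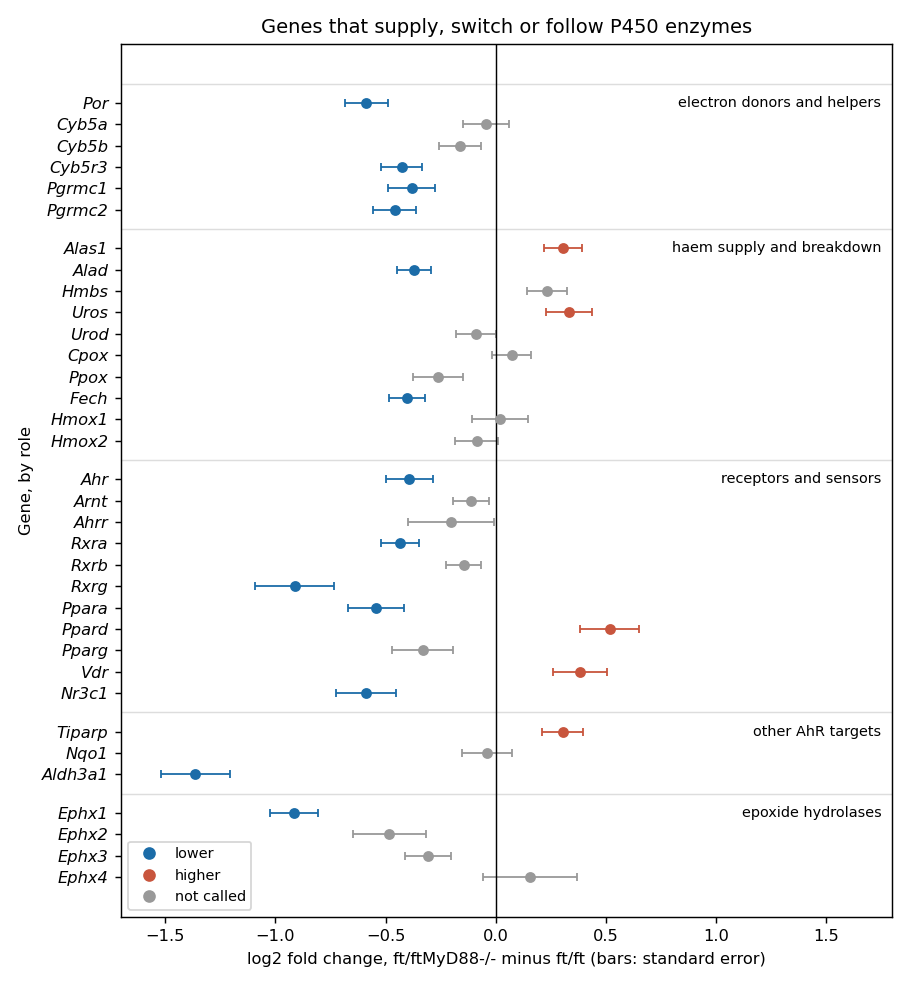
The log2 fold change (ft/ftMyD88-/- minus ft/ft, x axis) of the partner and regulator genes of P450 enzymes by role (y axis), with standard errors as bars and the edgeR call as colour. Aldh3a1 at -1.36 and Ephx1 and Rxrg at -0.92 and -0.91 are the lowest, and Ppard at 0.52 is the highest.

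P450 genes outside families 1 to 4 were divided. Of 11 tested, 2 were higher (18.2%, against 10.9% of all genes), 3 were lower (27.3%, against 12.3%) and 6 were not called. With 11 genes these shares rest on few calls. The median log2 fold change was 0.08. The steroid enzymes Cyp17a1 (2.20, edgeR adjusted p = 2.84e-05) and Cyp7b1 (1.33, adjusted p = 0.00386) were higher, and Cyp39a1, Cyp27a1 and Cyp26b1 were lower.

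Several lists of markers of other cells held genes called lower or higher, beside 12.3% lower and 10.9% higher over all genes, and their part in the member differences was not tested. Of 12 sebocyte genes 9 were lower, 7 of them with no overlap between the groups, and their summed CPM was 9547 to 11059 in ft/ft and 7454 to 9565 in ft/ftMyD88-/-. Within that sum Krt79 (2420 ± 178 against 2405 ± 159 CPM, SD, n = 4) and Elovl3 (608 ± 31.7 against 687 ± 103) were not called. Of 8 skeletal muscle genes 7 were lower (8446 to 11492 against 3261 to 6281 CPM). The 7 anagen hair follicle genes, none of them called, summed to 1831 to 2629 CPM in ft/ft and to 15800, 2347, 3592 and 8526 in ft/ftMyD88-/-. Of 8 differentiated keratinocyte genes, 2 were lower, 2 were higher and 4 were not called. Those lower were Krt10 (log2 fold change -0.58) and Lor (-1.51), and those higher were Casp14 (1.10) and Klk7 (0.47). Of 7 macrophage genes 1 was higher, and of 5 conjunctiva genes 1 was lower. Of 3 lacrimal gland genes in the table, Aqp5 was lower and Lpo was higher. None of 4 hyperproliferative keratinocyte genes was called, although all 4 log2 fold changes were positive (0.20 to 2.58). Krt16 was at 46.9 to 253 CPM in ft/ft and 357 to 1074 in ft/ftMyD88-/-, without overlap (edgeR adjusted p = 0.0530). Of 5 tested hepatocyte genes, markers of the tissue in which many members are best known, none was called, and the list summed to 2.25 to 4.03 CPM in ft/ft and 2.67 to 3.40 in ft/ftMyD88-/-, with Fgb at 0 in all libraries.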

How the data were processed

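Per the study's methods, the authors aligned 50-base single-end reads of periocular skin to GRCm38.p6 with HISAT and tophat2 and counted reads per gene with HTSeq at default settings. The values are counts, deposited by the authors without normalization. Tool versions and the annotation are not given in the sources used here. HTSeq counts by strand unless told otherwise, and the kit named does not mark strand. PolyA selection is described in the methods, whereas a fixed-tissue protocol and Cell Ranger stand in the labels. The 4 WT samples were not analysed here.

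Genes with at least 10 counts summed over 8 libraries (20454 of 21247) were tested with edgeR 4.0.16 in R 4.3.3 (TMM, glmQLFit with robust = TRUE, glmQLFTest, two-sided, no covariate, Benjamini-Hochberg adjustment over all genes tested, threshold 0.05). TMM factors were 0.922 to 0.954 in ft/ft and 1.04 to 1.09 in ft/ftMyD88-/-. CPM are counts divided by the TMM-scaled library size and multiplied by 1e6. Standard errors are the log2 fold change divided by the square root of F. A floor of 3 counts covers counting error only. Nothing says that samples with 1 label came from separate litters or cages, so p-values measure the spread between these samples. Every pair of replicate libraries differed by more than counting noise (smallest chi-square divided by its degrees of freedom, 15.1). On simulated counts for this comparison (20177 genes tested), the fit called 189 of 200 genes changed 4-fold and 7 unchanged genes. The changed genes were drawn from those with a mean of at least 10 counts per library. Recovery of smaller differences or of lower counts was not simulated, and 7 of the 19 members called lower differed under 2-fold in mean CPM.

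Positions, merged exon lengths, coding sequences and shared 50-base stretches came from GENCODE M21 (GRCm38), which matched 39 of 40 members, and promoters from RefSeq. The members and gene lists were chosen with earlier results of these data known. Named members were those called, the 10 highest in mean CPM, family 1 and those known as sex-biased in liver. Other members were added to account for every member, after their values were seen. Same-numbered libraries of the groups did not deviate together (correlations of -0.146 to 0.0251), so numbers were not treated as pairs. Alternatives were DESeq2 1.42.0, voom of limma 3.58.1, RLE, library size alone, filterByExpr, no filter, a replicate block, each library left out, an adjusted p under 0.01 and a log2 fold change of at least 1. The counts of non-overlapping members under RLE and library size alone were added after seeing the data.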

Additional observations from a re-analysis of the deposited data

Results flagged for a closer look

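Of 50 sets of 4 libraries tested (25 named members in 2 groups), 4 held a library far from the other 3 by Dixon's criterion, where chance flags about 1 in 20. Cyp2e1 was at 99.2 CPM in ft/ftMyD88-/- replicate 3, with the others at 22.7 to 30.0. Cyp4a12a was at 2.76 CPM in ft/ft replicate 2, with the others at 0.575 to 0.781. Cyp4f18 was at 1.27 CPM in ft/ft replicate 2, with the others at 0.502 to 0.537. Cyp4a12b was at 24.3 CPM in ft/ftMyD88-/- replicate 1, with the others at 19.8 to 20.0.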

How the results depend on the processing

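The count of members lower stayed at 16 to 20 under every alternative other than a log2 fold change of at least 1, which left 12 of 19, and was 16 to 19 with 1 library left out. The count of members higher was 1 with an adjusted p under 0.01, and 1 to 3 with 1 library left out. Library size alone moved the median log2 fold change of the members to -0.63, beside 0.19 for all genes, left 14 members lower without overlap and 2 higher, and left 6 partner and regulator genes lower. With 1 library left out the median was -0.89 to -0.66, and partner and regulator genes numbered 11 to 14 lower and 0 to 4 higher. The replicate block, whose numbers do not pair the samples, left 18 members lower, 2 higher and 1 partner and regulator gene higher. Over the 25 named members and 15 alternatives, 348 values kept their direction and call, 22 lost the call, 2 gained it and 2 turned sign (Cyp1b1, 0.14 with library size alone and 0.0843 without ft/ft replicate 3, in a range of -0.137 to 0.0843 with 1 library left out). The lost calls were of Cyp2e1, Cyp2b23, Cyp4a10 and Cyp4f18. Under the block, Cyp2e1 had an adjusted p of 0.0832 and Cyp2b23 of 0.111, and under voom Cyp4a10 had 0.0525. The cause of these changes was not tested. filterByExpr left no value for Cyp4a10. Over all genes, library size alone called 4638 higher and 1326 lower, against 2239 and 2525. Depth limits Cyp3a25, Cyp4f14 and the 3 untested members, at 4 counts or fewer in each library.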
